A study of Mus musculus with 32 samples.

Results

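Oxidative phosphorylation is the process by which mitochondria use electrons from food to make ATP. Complexes I to IV pass electrons from NADH and succinate to oxygen, and complexes I, III and IV pump protons across the inner membrane. Complex V, the ATP synthase, lets the protons flow back to drive ATP synthesis. Nearly all subunits are encoded in the nucleus, a small number of hydrophobic ones by mitochondrial DNA, and neurons depend on the process for the energy that synaptic signalling and ion pumping require. The genes described here are the nuclear subunit genes, taken by symbol (Nduf for complex I, Sdh for complex II, Uqcr and Cyc1 for complex III, Cox4 to Cox8 for complex IV and Atp5 for complex V) and by a protein-coding label in the deposited table. The symbols matched 104 genes, of which 16 were not labelled protein coding, so the group holds 88 of the 40392 genes in the table. Complex I has 39 of them, complex II 4, complex III 9, complex IV 18 and complex V 18. Ndufa4 is counted with complex I by its symbol, although its protein is now placed in complex IV. The members lie on 19 chromosomes. Ndufb11b, with counts in 6 libraries, did not pass the filter on low counts, and the other 87 were tested.

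Polyadenylated RNA of mouse basolateral amygdala, a group of forebrain nuclei that assigns emotional value to events, was sequenced in 32 libraries, 4 in each of 8 groups. The groups are adolescent mice after social defeat (sds) at day 1, their controls (ctrl) at day 1, adolescent defeat at day 21 and its controls, adult defeat at day 1 and its controls, and adult defeat at day 21 and its controls. Social defeat exposes a mouse to an aggressive opponent. The design text names mice of 6 and 9 weeks of age without tying an age to a class, the event from which the days are counted is not named, and strain and sex are not given in the sources used here. Whether each library is a different animal is not stated, and p-values therefore describe the spread between samples, part of which may be technical.

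Library totals ranged from 53885799 to 82208892 counts. Slc17a7, the vesicular glutamate transporter of cortical and basolateral amygdala neurons, had a mean of 170 FPKM (132 to 221 over the libraries) and Rspo2, a marker of basolateral amygdala neurons, 3.16 FPKM (2.01 to 3.93). FPKM count fragments per length of the gene model and per sequencing depth, so they allow levels of different genes to be compared. The striatal and central amygdala marker Ppp1r1b was also present at 204 FPKM (133 to 307). Ttr, abundant in choroid plexus, exceeded 100 CPM (counts scaled to a common library size) in 11 libraries, among them all 4 of adolescent defeat day 1. In bulk tissue, fewer cells of a type and less RNA per cell cannot be told apart.

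Most of the subunit genes were abundant in this tissue. Their mean level over the 32 libraries had a median of 32.5 FPKM and ranged from 0.00919 to 260 FPKM, with 75 members above 10 FPKM, 5 above 100 FPKM and 7 below 2 FPKM. The median level was 29.1 FPKM in complex I, 39.4 in complex II, 51.2 in complex III, 34.3 in complex IV and 32.9 in complex V. The 5 most abundant were Cox8a, a small subunit of complex IV, at 260 ± 21 FPKM (SD over 32 libraries), Cox6a1 of complex IV at 240 ± 17.9, Atp5f1a and Atp5f1b, the alpha and beta subunits of the catalytic head of the ATP synthase, at 218 ± 10.6 and 200 ± 8.78, and Cox4i1, a nuclear subunit of complex IV, at 155 FPKM. The SDs of Atp5f1a and Atp5f1b overlap, and the difference between these neighbours in the order was not tested. Ndufb9 was the most abundant complex I gene at 75.0 ± 4.13 FPKM, and Sdha, the flavoprotein that oxidises succinate, the most abundant of complex II at 86.5 ± 2.55 FPKM.

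**Figure D1:**
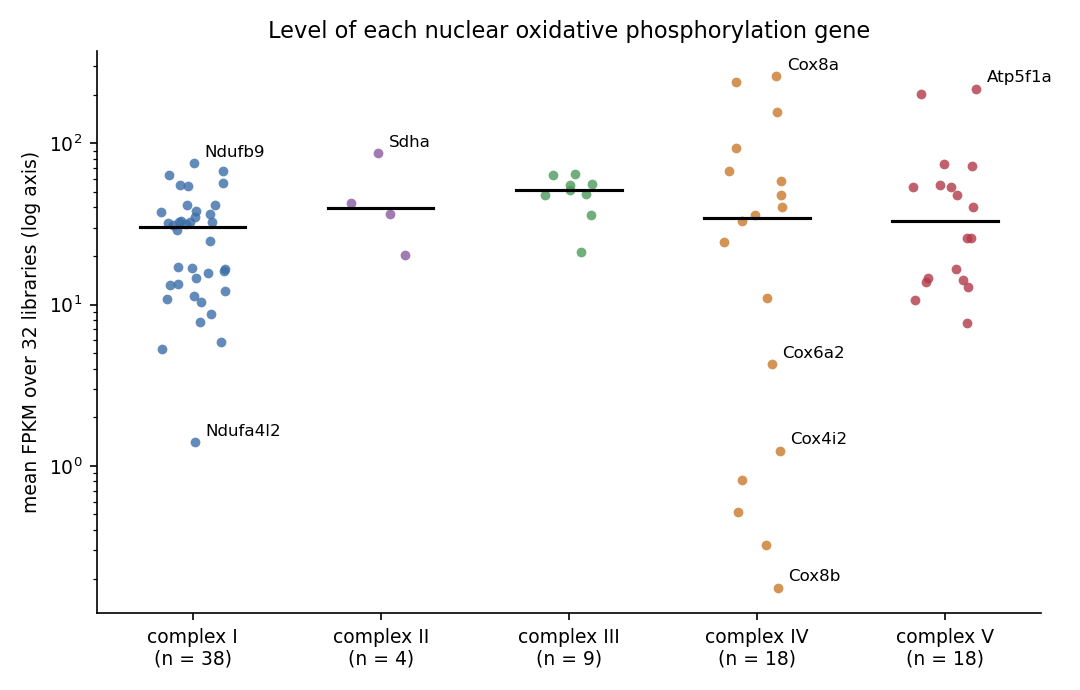
Mean FPKM over 32 libraries of each of the 87 tested subunit genes (points, log axis), by complex, with a bar at the median of the complex. Most points lie above 10 FPKM, Cox8a is highest at 260 FPKM, and the few points below 2 FPKM are mainly isoforms that lie far below a widely expressed partner.

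The levels varied little between libraries. Over the 80 members with at least 5 FPKM, the coefficient of variation across all 32 libraries had a median of 6.29% and ranged from 2.94% for Sdha to 14.9% for Ndufa12. Group means are given here for some subunit genes of complexes I, III, IV and V. Ndufs1, the largest iron-sulfur subunit of complex I, had its highest group mean in adolescent defeat day 1 (16.4 ± 0.615 FPKM, SD, n = 4) and its lowest in adult control day 21 (14.7 ± 0.505). Cyc1, cytochrome c1 of complex III, was highest in adolescent defeat day 21 (57.6 ± 0.938 FPKM) and lowest in adolescent control day 21 (54.7 ± 2.13). Cox5a of complex IV was highest in adolescent defeat day 1 (37.1 ± 1.11 FPKM) and lowest in adult control day 1 (34.9 ± 1.002). Atp5f1b had its highest mean in adolescent defeat day 21 (209 ± 11.2 FPKM) and its lowest in adult defeat day 1 (193 ± 6.10). Ndufv1, the subunit that binds NADH, was highest in adolescent defeat day 21 (43.2 ± 0.491 FPKM) and lowest in adult control day 1 (39.8 ± 1.93). The highest group mean of Cox8a was also in adolescent defeat day 1, at 293 ± 12.6 FPKM, and the lowest in adult defeat day 1, at 246 ± 13.5 FPKM.

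Isoforms known from muscle, heart or testis, or from hypoxia, were low beside their widely expressed partners. Mean FPKM of Cox8a was 1476 times that of the muscle isoform Cox8b, Cox4i1 125 times that of Cox4i2, an isoform that responds to hypoxia, and Cox6b1 114 times that of the testis isoform Cox6b2. Cox7a2 was 113 times the muscle isoform Cox7a1, Cox7b 101 times Cox7b2 and Ndufa4 39.6 times Ndufa4l2, a paralog induced by hypoxia. Cox6a2, the muscle isoform also known from parvalbumin interneurons, had the highest level of these isoforms: Cox6a1 exceeded it 56.0 times, and its group means had their highest value of 4.53 ± 0.792 FPKM in adult control day 21 and their lowest of 3.84 ± 1.18 FPKM in adult control day 1. Cox4i2 was highest in adolescent defeat day 21 (1.39 ± 0.553 FPKM) and lowest in adolescent control day 1 (0.942 ± 0.204), and Cox7b2 highest in adult defeat day 1 (0.388 ± 0.166) and lowest in adult control day 21 (0.259 ± 0.114). The SDs of the lowest and highest groups overlap for Cox6a2, Cox4i2 and Cox7b2.

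The membrane ring of the ATP synthase is built of subunit c, which 3 genes encode with the same mature protein. Of their summed FPKM, Atp5mc3 made up 58.1 ± 1.01%, Atp5mc2 27.9 ± 1.34% and Atp5mc1 14.0 ± 1.17% (mean ± SD over 32 libraries). The spreads of the 3 shares do not overlap. Some members have near-identical copies that the table lists separately: Ndufa12-ps with 480 counts per library on average, Ndufb4c with 411 and Ndufb4b with 310. Reads of Ndufa12, Ndufb4, Atp5pb and the pair Cox5b and Cox5b-ps could therefore have been split by the counting, and their values are uncertain.

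The comparison in adolescents at day 1 set defeated mice against control mice of the same age class and day. Subunit genes of all 5 complexes lay slightly higher in defeat libraries, by a median log2 change of 0.12 against -0.00 over all 23778 genes tested, and none passed the threshold. Log2 changes here are from edgeR's quasi-likelihood fit, defeat minus control, and the threshold is a Benjamini-Hochberg adjusted p of 0.05 over all genes tested. In this comparison 0.0547% of all genes passed it. Of the 87 members, 79 had a log2 change above 0 and 40 (46.0%) were higher at an unadjusted p under 0.05, against 4.24% of all genes. By contrast 0 members were lower at that level, against 3.21% of all genes. DESeq2 called 5 members higher (Atp5mk, Uqcr11, Ndufa4, Atp5mg and Ndufa1), and limma on log2 FPKM called 0. No share of all genes is given for these methods, so the 5 calls have no background to be read against. In 22 members (25.3%) every defeat library lay above every control library, as in 2.64% of all genes.

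The members with the smallest p in this comparison were small subunits that sit in or near the membrane arms of their complexes. Atp5mk (ENSMUSG00000071528), a small membrane subunit of the ATP synthase, had 34.2, 35.7, 32.4 and 38.0 CPM in the adolescent defeat day 1 libraries, against 28, 32.3, 28.1 and 27.3 CPM in the controls. Every defeat library lay above every control library, the closest pair by a small margin. The log2 change was 0.28 ± 0.06 (SE, n = 4 per group) with an adjusted p of 0.0976 by edgeR and 0.0149 by DESeq2. Uqcr11 (ENSMUSG00000020163), a small subunit of complex III, had 41.1, 34.7, 34.1 and 41.2 CPM in defeat libraries, against 31.0, 31.7, 32.7 and 29.4 CPM in controls. The groups did not overlap, and 2 defeat libraries stood well above the other 2. Its log2 change was 0.27 ± 0.07, with an adjusted p of 0.126 by edgeR's test. Ndufa4 (ENSMUSG00000029632), a subunit of complex IV, had 92.7, 90.4, 84 and 97.6 CPM after defeat, against 77.4, 81.4, 81.8 and 77.6 CPM in controls. These groups did not overlap either, and the log2 change was 0.20 ± 0.05 (edgeR adjusted p of 0.138).

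Ndufa1 (ENSMUSG00000016427), a small membrane-arm subunit of complex I, had the largest log2 change of the 8 genes named here. Its CPM were 14.8, 14.6, 16.8 and 20.4 in defeat libraries, against 11.8, 12.3, 12.6 and 13.7 in controls, without overlap, and the log2 change was 0.40 ± 0.10 (edgeR adjusted p of 0.159). Cox7c (ENSMUSG00000017778), a small subunit of complex IV, had 51.1, 52.2, 51.0 and 77.9 CPM, against 43.9, 47.3, 48.6 and 44.8 CPM in controls. The groups did not overlap, but 1 defeat library stood far above the other 3. Its log2 change of 0.33 ± 0.09 (edgeR adjusted p of 0.236) was 0.16 ± 0.06 without that library. The same library, replicate 4, was also the highest defeat library for Atp5mk, Uqcr11, Ndufa4, Ndufa1 and Atp5mg. It was not the highest for Ndufb6 and Ndufs5. All 8 genes were measured in the same libraries, so they are not separate pieces of evidence.

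In the other 3 genes the lowest defeat library lay below the highest control library. Atp5mg (ENSMUSG00000038717), another small membrane subunit of the ATP synthase, had 58.9, 51.0, 57.7 and 63.0 CPM in defeat libraries, against 46.3, 49.9, 52.3 and 49.4 CPM in controls. Its log2 change was 0.22 ± 0.06, and the adjusted p of 0.154 by edgeR became 0.0298 without the lowest defeat library (replicate 2). That was the smallest value of all alternative settings. Over these settings the log2 change ran from 0.16 to 0.27, and the adjusted p, by the test of each setting, reached 0.683. Ndufb6 (ENSMUSG00000071014), a supernumerary subunit of complex I, had 24, 25.5, 20.9 and 23.6 CPM, against 18.7, 21.3, 20.2 and 19.2 CPM in controls (log2 change 0.25 ± 0.07). Ndufs5 (ENSMUSG00000028648), also supernumerary, had 34.5, 35.1, 30.7 and 34.8 CPM, against 25.2, 32.4, 28 and 24.7 CPM in controls (log2 change 0.29 ± 0.08).

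**Figure D2:**
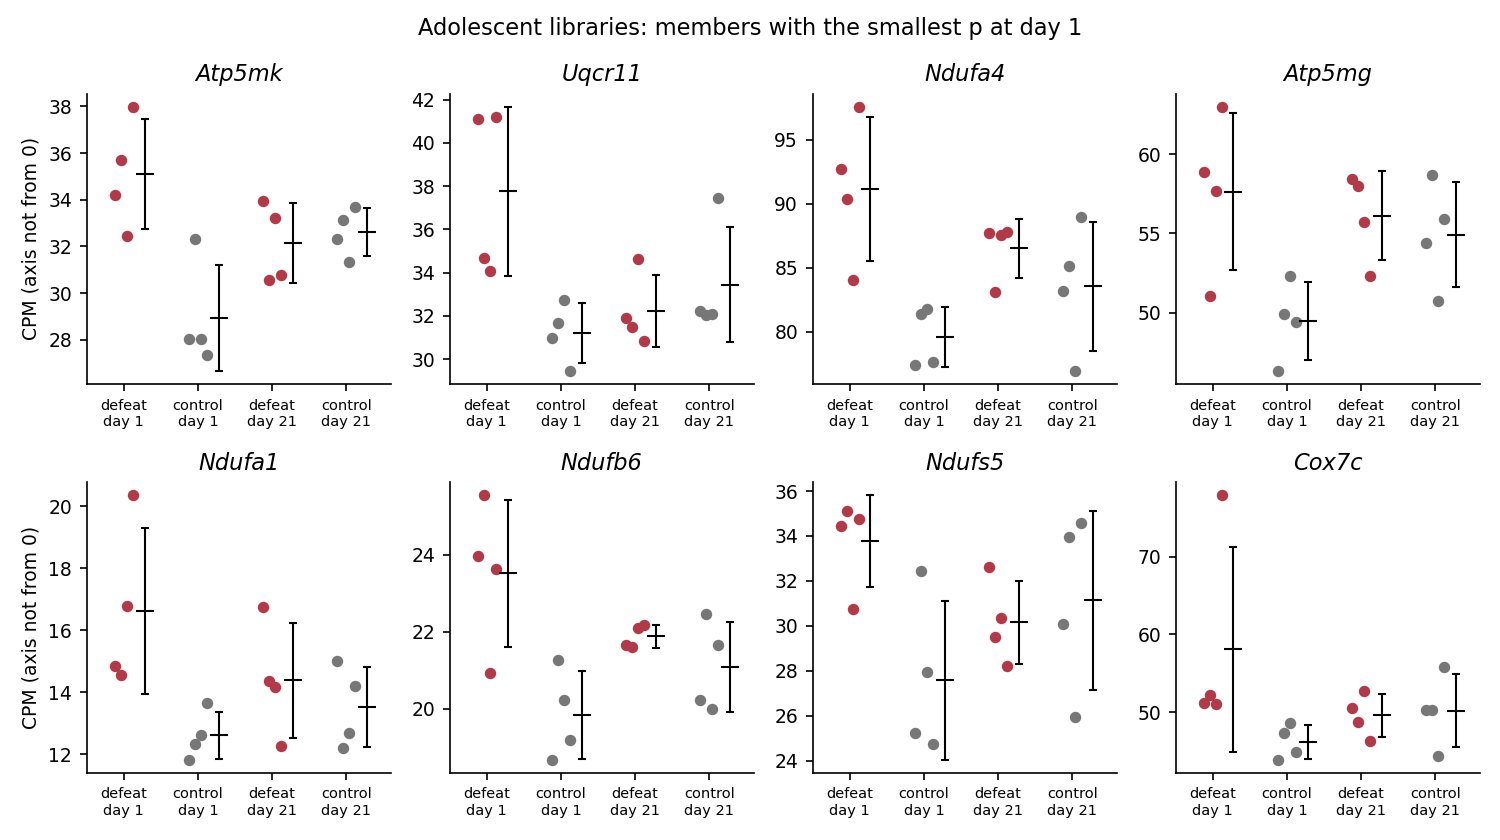
CPM per library of the 8 subunit genes named for the adolescent day 1 comparison, in adolescent defeat day 1, control day 1, defeat day 21 and control day 21 (points are libraries, bars the mean ± SD, n = 4, axes do not start at 0). The day 1 defeat points lie highest in most panels, and the 77.9 CPM point of Cox7c stands apart.

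Promoters of these genes were examined for sites of factors known to control nuclear subunit genes, since members from several complexes lay on the same side of 0. The windows, from RefSeq on GRCm38.p6, run from 250 bases before to 50 after the gene start and were found for 70 of the 88 members. On both strands, GCGCATGC, the core of the site of NRF1, was in 10 member windows (14.3%), against 3.05% of the 27025 genes of the table. CCGGAAG, a site of ETS factors such as GABPA, was in 16 (22.9%), against 9.93%. AAGATGGCG, a site of YY1, was in 7 (10%), against 1.64%, and AAGGTCA, recognised by estrogen-related receptors, in 9 (12.9%), against 5.38%. At least 1 of the first 3 was in 27 member windows (38.6%), against 13.6% of all genes, a set that also includes non-coding genes. Of the 8 genes named above, 7 had a window and 4 of these held at least 1 of the 4 motifs. A match of letters is a description and not evidence of binding. These 4 windows are printed 5′ to 3′ along the gene's strand, with the matched letters in capitals. Uqcr11 is at chr10:80406772-80407071 on the minus strand, with CCGGAAG starting at position -66 and the reverse complement of GCGCATGC at -4 from the gene start. Atp5mg, listed there as Atp5l, is at chr9:44920693-44920992 on the minus strand, with the reverse complement of GCGCATGC at -240 that of CCGGAAG at -212 and 25 and that of AAGGTCA at -13. Ndufb6 is at chr4:40279372-40279671 on the minus strand, with the reverse complement of CCGGAAG at -232. Ndufs5 is at chr4:123718137-123718436 on the minus strand, with the reverse complement of AAGGTCA at -228. None of the matched sites overlaps another.
Uqcr11: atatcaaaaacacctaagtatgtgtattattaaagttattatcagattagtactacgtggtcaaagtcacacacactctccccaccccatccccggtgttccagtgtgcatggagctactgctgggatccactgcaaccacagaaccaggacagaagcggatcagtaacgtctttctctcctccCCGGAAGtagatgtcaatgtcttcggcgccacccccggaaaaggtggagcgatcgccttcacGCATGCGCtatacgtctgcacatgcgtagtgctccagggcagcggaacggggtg
Atp5mg: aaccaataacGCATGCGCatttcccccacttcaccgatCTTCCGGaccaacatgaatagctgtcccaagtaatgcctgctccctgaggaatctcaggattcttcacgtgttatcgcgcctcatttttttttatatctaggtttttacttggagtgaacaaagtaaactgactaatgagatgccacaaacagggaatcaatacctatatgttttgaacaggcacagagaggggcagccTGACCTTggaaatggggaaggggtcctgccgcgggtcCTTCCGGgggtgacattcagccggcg
Ndufb6: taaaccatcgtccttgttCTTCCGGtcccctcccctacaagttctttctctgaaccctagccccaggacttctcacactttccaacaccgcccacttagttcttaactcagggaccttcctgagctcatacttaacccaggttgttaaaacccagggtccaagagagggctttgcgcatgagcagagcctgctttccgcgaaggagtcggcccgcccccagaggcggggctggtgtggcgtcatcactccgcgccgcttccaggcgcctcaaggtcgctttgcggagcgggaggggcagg
Ndufs5: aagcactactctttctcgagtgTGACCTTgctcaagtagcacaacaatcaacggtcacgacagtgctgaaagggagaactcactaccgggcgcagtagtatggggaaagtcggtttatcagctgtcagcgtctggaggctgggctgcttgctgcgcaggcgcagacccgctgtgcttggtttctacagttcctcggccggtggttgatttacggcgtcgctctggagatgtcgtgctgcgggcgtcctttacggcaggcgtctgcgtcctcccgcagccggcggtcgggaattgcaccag

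The pattern in adolescents at day 1 was spread over the complexes. In complex IV, 16 of 18 members had a log2 change above 0 and 10 were higher at an unadjusted p under 0.05, with a median of 0.18. In complex V these were 17 of 18 and 9, with a median of 0.13, in complex I 35 of 38 and 17 (median 0.13), in complex III 7 of 9 and 3 (median 0.04) and in complex II 4 of 4 and 1 (median 0.04). Within complex I by symbol, 17 of 31 genes outside the core were higher at that level, with a median of 0.15. Among the 7 core subunits, which carry the redox centres, 0 were, with a median of 0.05. The 31, called supernumerary in these comparisons, include Ndufa4 and Ndufa4l2. The log2 changes of some catalytic or core genes were 0.03 ± 0.05 (SE) for Atp5f1a, 0.06 ± 0.05 for Atp5f1b and 0.03 ± 0.03 for Sdha. Those of Cyc1 and Ndufs1 were 0.03 ± 0.05 and 0.05 ± 0.05. The 95% interval of the log2 change ran from -0.06 to 0.12 for Atp5f1a, with an upper end close to the members' median. Among abundant small subunits, Cox8a had 198, 190, 188 and 213 CPM in defeat libraries, against 177, 173, 161 and 159 CPM in controls (log2 change 0.23 ± 0.07, edgeR adjusted p of 0.308). Every defeat library of Cox8a lay above every control library. The same held for Cox4i1 (0.18 ± 0.06), Cox6a1 (0.19 ± 0.07) and Atp5if1, the inhibitor that blocks ATP hydrolysis by the synthase (0.14 ± 0.05, edgeR adjusted p of 0.366). The 8 members below 0 were Uqcrc2, Uqcrfs1, Ndufa10, Ndufa12, Ndufs8, Atp5mc1, Cox6a2 and Cox7b2, and 0 of them had an unadjusted p under 0.05.

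**Figure D3:**
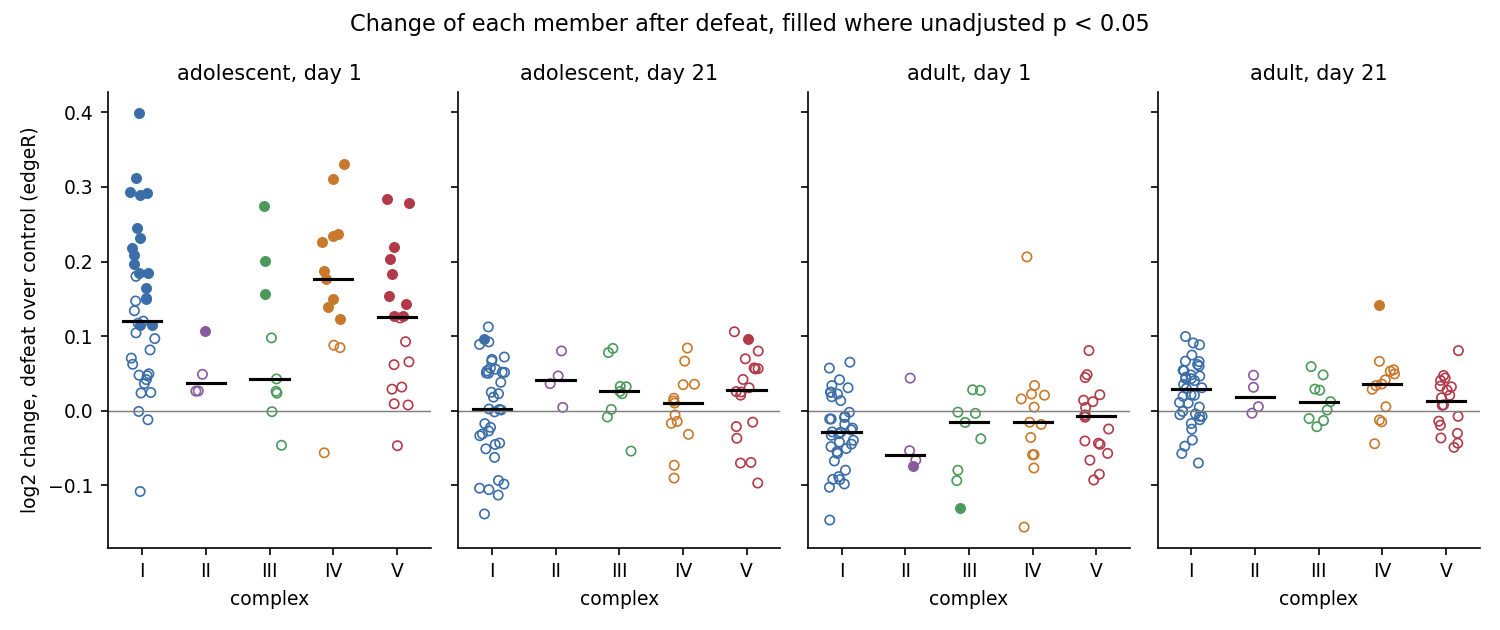
Log2 change, defeat minus control, of each subunit gene with a mean of at least 2 FPKM, by complex, in the 4 defeat comparisons (filled points have an unadjusted p under 0.05, bars are medians). In adolescents at day 1 most points lie above 0 in every complex, and in the other 3 comparisons they are centred near 0.

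Shorter gene models had larger log2 changes in this comparison, both among the members and among other genes. The 22 members with models under 1000 bases had a median log2 change of 0.22, the 31 between 1000 and 2000 bases 0.14, the 24 between 2000 and 4000 bases 0.08 and the 10 over 4000 bases 0.05. Over all protein-coding genes tested, the medians in the same order of length were 0.11, 0.06, 0.01 and -0.01. The members' median lay above that of protein-coding genes in each length class. The median model length was 1313 bases for supernumerary subunits of complex I and 2349 bases for core subunits, so role and length cannot be told apart there.

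**Figure D4:**
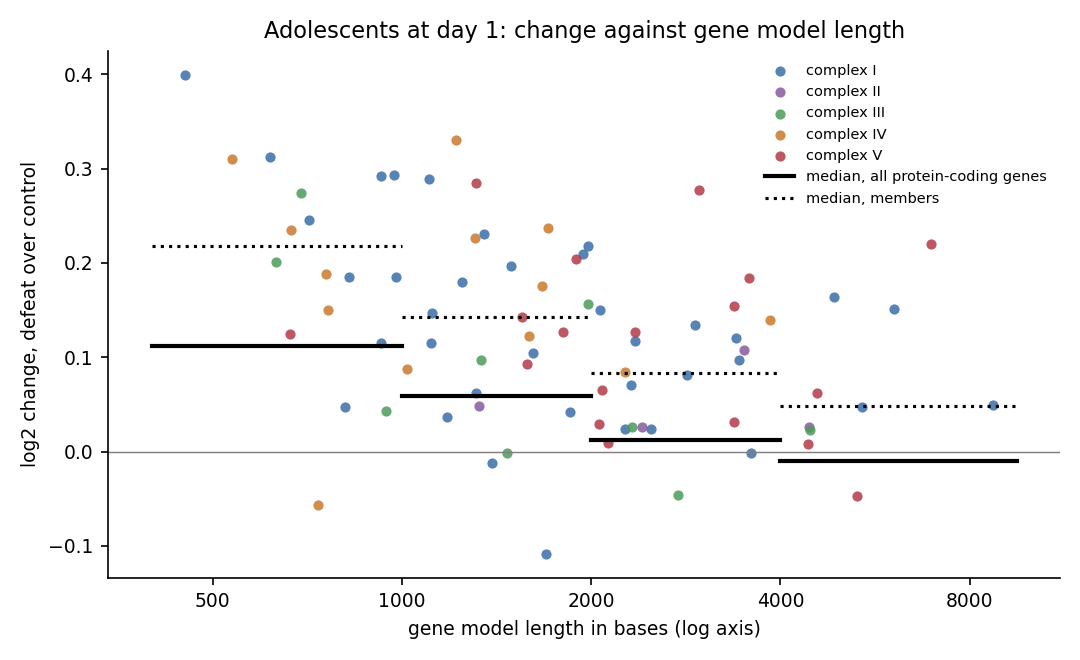
Log2 change in adolescents at day 1 (defeat minus control) against gene model length in bases (log axis) for subunit genes with a mean of at least 2 FPKM (points). The solid line is the median of all protein-coding genes in 4 length classes, the dotted line that of the subunit genes, which lies above it, from 0.22 in the shortest class to 0.05 in the longest.

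Genes outside the pathway lay to the same side as the members in this comparison. Of 84 cytosolic ribosomal protein genes, which also have short and abundant transcripts, 78 had a log2 change above 0 and 39 (46.4%) were higher at an unadjusted p under 0.05, with a median of 0.12. With the ribosomal protein level as a covariate in the fit, 10 members were higher at that level and the median was 0.05. The log2 changes of the choroid plexus markers, 10 of 10 above 0, had a median of 1.74, and these markers made up 0.0938 to 0.139% of counts in defeat libraries, against 0.0021 to 0.112% in controls (exact permutation p of 0.0857, 2-sided). Blood genes were at 0.0140 to 0.0280% of counts in defeat libraries, against 0.0094 to 0.0161% in controls (exact permutation p of 0.0857). Cytosolic ribosomal protein genes averaged 0.960% of counts in defeat libraries, against 0.893% in controls (exact permutation p of 0.0571). The smallest p that 4 against 4 can give is 0.0286, and each of these p-values was 0.257 after adjustment over 12 such tests. None of the choroid plexus or blood markers was at 0 counts in a whole group. With the choroid plexus level as a covariate, 37 members were higher at an unadjusted p under 0.05 and the median was 0.14. The share of all genes at that level is not given for either covariate fit. Striatal and central amygdala markers were above 0 in 6 of 6, vessel markers in 5 of 6 with 3 higher at an unadjusted p under 0.05, basolateral amygdala and cortical excitatory markers in 0 of 6, and astrocyte markers in 1 of 6. The part of tissue composition in the members' values was not tested beyond the choroid plexus covariate.

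Other genes of the pathway, from lists, lay closer to 0 in adolescents at day 1. Of 49 assembly factors, which help to build the complexes, 32 had a log2 change above 0 and 5 were higher at an unadjusted p under 0.05 (median 0.03). All 13 mitochondrially encoded subunits were above 0 and 1 of them, mt-Nd3, was higher at that level (0.30 ± 0.13), with a median of 0.09. Of 13 citrate cycle genes 6 were above 0 (median -0.01), and of 78 mitochondrial ribosomal protein genes 52 (median 0.03). Among 13 regulators of mitochondrial gene expression 4 were above 0. Nrf1 had a log2 change of -0.12 and Ppargc1a, a coactivator that drives mitochondrial biogenesis, of -0.04, while Esrra, an estrogen-related receptor, was at 0.15 ± 0.07 (edgeR adjusted p of 0.659). In each of these lists 0 genes passed the threshold.

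**Figure D5:**
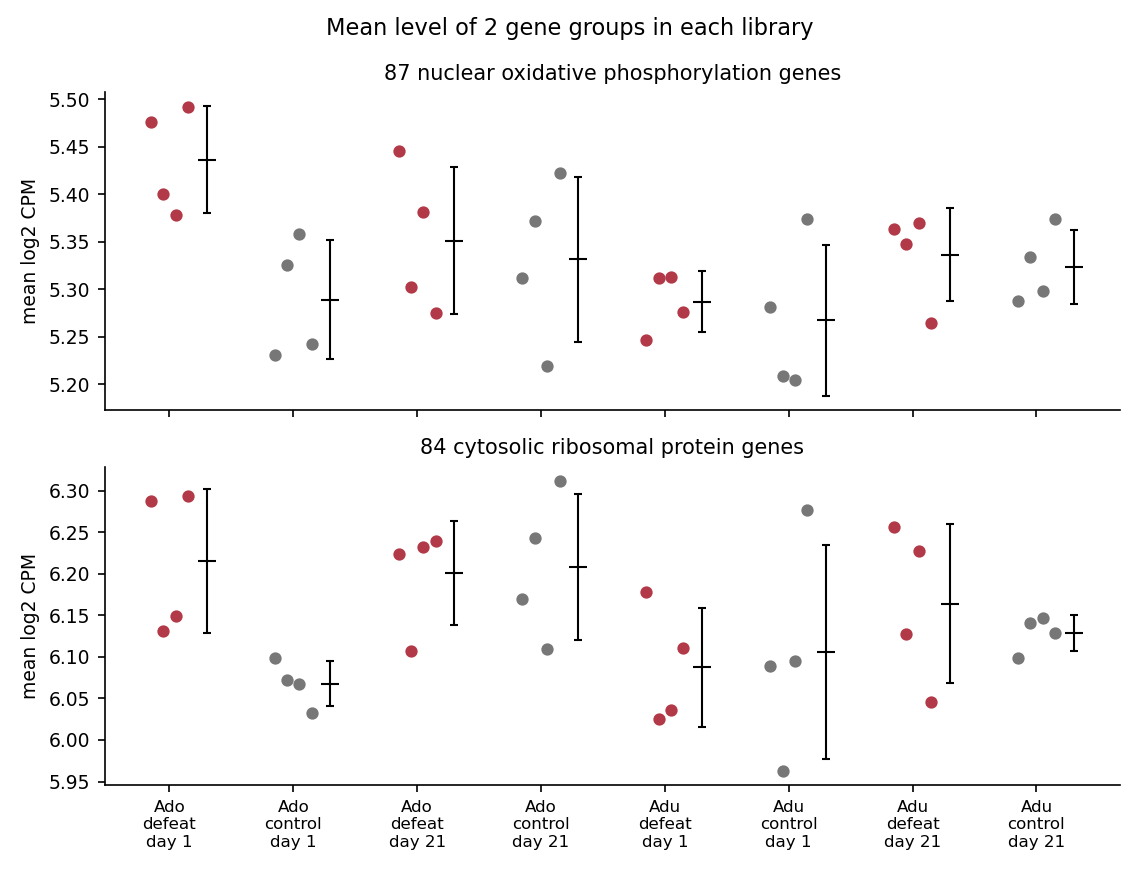
Mean log2 CPM per library of the 87 tested subunit genes and of 84 cytosolic ribosomal protein genes in the 8 groups (points are libraries). For the subunit genes, adolescent defeat day 1 lies at 5.38 to 5.49, above its controls at 5.23 to 5.36, and the other groups overlap with their controls.

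In adolescents at day 21, the subunit genes were near 0: 56 of 87 were above 0, with a median of 0.02 against 0.00 over all genes. Of all genes 0.0126% passed the threshold, and of the members 0 did by edgeR, DESeq2 or limma. At an unadjusted p under 0.05, 2 members were higher, against 2.73% of all genes, and 0 lower, against 2.99%. These 2 were a core gene of complex I and a gene of the catalytic head of the ATP synthase. Ndufv1 had 122, 124, 125 and 123 CPM in defeat libraries, against 111, 118, 111 and 123 CPM in controls, overlapping in the highest control (log2 change 0.10 ± 0.04, edgeR adjusted p of 0.812). Atp5f1a had 792, 786, 783 and 730 CPM in defeat libraries, against 733, 751, 663 and 744 CPM in controls (0.10 ± 0.05). The lowest defeat library of Atp5f1a fell within the controls. All 7 core subunits of complex I were above 0, with a median of 0.07, and the 31 supernumerary ones had a median of -0.00. Other genes with small p were Sdhb, the iron-sulfur subunit of complex II (95.6 ± 3.33 CPM in defeat libraries against 90.4 ± 5.41 CPM in controls, log2 change 0.08), and Ndufv3 (30.5 ± 1.69 against 32.5 ± 0.875 CPM, -0.09). Cyc1 had a log2 change of 0.08, Ndufb4 of 0.11 and Cox7a2l, a factor that joins complexes III and IV in supercomplexes, of 0.08. Without replicate 3 of the controls these were 0.051, 0.056 and 0.039, and those of Atp5f1a and Sdhb were 0.054 and 0.047. Citrate cycle genes, the pathway that feeds electrons to complexes I and II, were above 0 in 12 of 13 (median 0.06), and 2 were higher at an unadjusted p under 0.05. Blood genes averaged 0.0152% of counts in defeat libraries, against 0.0123% in controls (exact permutation p of 0.0286, or 0.257 after adjustment). The genes with the smallest p at day 1 had log2 changes of -0.02 (Atp5mk), -0.05 (Uqcr11) and 0.05 (Ndufa4) at day 21.

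In adults at day 1, 31 of 87 members were above 0, with a median of -0.02 against -0.00 over all genes. Among all genes 0.353% passed the threshold, and among the members 0 by edgeR, DESeq2 or limma. At an unadjusted p under 0.05, 1 member was higher, against 5.19% of all genes, and 2 were lower, against 4.31%. The lower ones were Uqcrfs1 and Sdha. Uqcrfs1, the Rieske iron-sulfur protein of complex III, had 84.7, 89.7, 91.7 and 81.5 CPM after defeat, against 97.4, 99.4, 87 and 96.6 CPM in controls (-0.13 ± 0.06, edgeR adjusted p of 0.424). Sdha had 376, 368, 387 and 371 CPM, against 404, 407, 386 and 384 CPM in controls (-0.07 ± 0.03, edgeR adjusted p of 0.466). In Uqcrfs1 1 control library lay within the range of the defeat libraries, and in Sdha 2 did. The higher one was Ndufa4l2, with 1.52, 1.84, 1.47 and 2.04 CPM after defeat, against 0.636, 1.10, 1.21 and 1.57 CPM in controls (0.61 ± 0.26, edgeR adjusted p of 0.443). Its groups overlapped, and its level is low in all libraries.

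Further members named by p in adults at day 1 were also lower in defeat libraries. Atp5pb, of the peripheral stalk of the ATP synthase, had 165, 178, 171 and 167 CPM after defeat, against 179, 186, 178 and 179 CPM in controls (-0.09), and every defeat library lay below every control library, the closest pair by less than 1 CPM. Uqcrc2, a core protein of complex III, had 170 ± 6.52 CPM against 182 ± 9.88 CPM (-0.09). Ndufv2 was at -0.08, Ndufv3 at -0.10 and the stalk gene Atp5po at -0.07. Without replicate 4 of the controls these were -0.044, -0.063 and -0.043, and Uqcrc2 was at -0.062 without replicate 2 of the controls. All 13 mitochondrially encoded subunits were below 0, with a median of -0.14, and 2 were lower at an unadjusted p under 0.05. In the list of regulators, Pprc1, a coactivator of the family of Ppargc1a, rose with a log2 change of 0.46 ± 0.08 (edgeR adjusted p of 0.00369), the 1 gene of the list that passed. The 8 genes named for adolescents at day 1 had log2 changes between -0.09 (Atp5mk) and 0.06 (Ndufa1) in adults at day 1.

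In adults at day 21, 59 of 87 members were above 0, with a median of 0.03 against 0.00 over all genes. The threshold was passed by 0.00841% of all genes and by 0 members with edgeR, DESeq2 or limma. At an unadjusted p under 0.05, 1 member was higher, against 3.17% of all genes, and 1 lower, against 3.29%. The higher one, Cox5b, the zinc-binding subunit of complex IV, had 93.3, 88.9, 85.2 and 81.7 CPM after defeat, against 72.6, 77.1, 76.5 and 90.2 CPM in controls (0.14 ± 0.07, edgeR adjusted p of 0.761). A single control library, the highest, lay within the defeat range. The lower one, Cox8b, had 0 counts in all 4 defeat libraries and 12 counts in all in the controls (0, 0, 3 and 9). Taking 3 counts in all as the limit that 0 counts allow, it was at least 3.68-fold lower in defeat libraries, which covers counting error only (edgeR adjusted p of 0.737). Of the control counts 9 are from replicate 4, and without that library both groups are at or under the limit, so that no fold can be given. In adolescents at day 1, Cox8b had 22, 18, 14 and 16 counts after defeat, against 0, 3, 9 and 6 counts in controls. Ttr, abundant in choroid plexus, also differed between these groups. It was at 2.32 to 10.9 CPM in adult defeat day 21, against 2.12 to 415 CPM in its controls. In adolescent defeat day 1 it was at 813 to 1220 CPM, against 2.90 to 982 CPM in controls. Whether the counts of Cox8b come from choroid plexus was not tested. Next by p in adults at day 21 were Atp5pd of the peripheral stalk (88.2 ± 3.20 against 83.4 ± 3.51 CPM, 0.08) and Ndufa6 of complex I (34.5 ± 1.52 against 32.2 ± 1.68 CPM, 0.10). Ndufv3, which had been below 0 in adults at day 1, had a log2 change of 0.09, and Ndufv2, Ndufb5 and Ndufa10 had log2 changes of 0.07, 0.07 and 0.04. With 1 library left out, Ndufv3 ranged from 0.058 to 0.15, Ndufv2 from 0.039 to 0.096, Ndufb5 from 0.037 to 0.090 and Ndufa10 from 0.029 to 0.073. Of the cytosolic ribosomal protein genes 71 of 84 were above 0 here, with a median of 0.05.

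The interactions set the defeat effect of 1 age class or day against that of the other, and they share libraries with the comparisons above. At day 1, the adult effect minus the adolescent effect was below 0 in 81 of 87 members, with a median of -0.13 against -0.00 over all genes. At an unadjusted p under 0.05, 29 members (33.3%) were lower, against 3.14% of all genes, and 0 higher, against 3.48%. By edgeR 0 members passed the threshold, against 0.0168% of all genes. DESeq2 called 1, Atp5mk, with no share of all genes by DESeq2 to read it against. The difference was -0.37 ± 0.09 for Atp5mk (edgeR adjusted p of 0.182), -0.24 ± 0.07 for Ndufa4, -0.39 ± 0.13 for Cox7c and -0.47 ± 0.15 for Cox5b-ps. Without replicate 4 of adolescent defeat day 1 it was -0.21 for Cox7c. Leaving out a single library changed the count of 29 to between 15 and 32: it was 15 without replicate 4 of adult control day 1, 18 without replicate 4 of adolescent control day 1 and 19 without replicate 4 of adolescent defeat day 1. With the ribosomal protein covariate it was 6, and the share of all genes in that fit is not given. The cytosolic ribosomal protein genes had a median of -0.13 in the same interaction, with 21 of 84 lower at an unadjusted p under 0.05.

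In adolescents, the day 21 effect minus the day 1 effect had a median of -0.08 over the members, and 24 of 87 (27.6%) were lower at an unadjusted p under 0.05, against 2.77% of all genes, and 0 higher, against 2.2%. The threshold was passed by 0 members with edgeR, DESeq2 or limma, and by 0.00421% of all genes. Uqcr11 had -0.33 ± 0.09 (edgeR adjusted p of 0.623), Atp5mk -0.30 ± 0.09, Atp5mf, a membrane subunit of the synthase, -0.25 ± 0.08 and Ndufs5 -0.34 ± 0.11. The age class interaction at day 21 had a median of -0.01, with 1 member higher at an unadjusted p under 0.05 (Ndufv3, 0.18 ± 0.08), against 3.54% of all genes, and 1 lower (Cox8b, at counts near 0), against 3.74%. There 0 members passed by edgeR, DESeq2 or limma, against 0.0252% of all genes. Ndufv1 was at -0.10 ± 0.06 and Ndufc1 at 0.19 ± 0.12 in that interaction (0.12 without replicate 4 of adolescent control day 21). In adults, the day 21 effect minus the day 1 effect had a median of 0.04. At an unadjusted p under 0.05, 2 members were higher, against 4.62% of all genes, and 2 lower, against 5.93%. By edgeR, DESeq2 or limma 0 members passed, against 0.622% of all genes by edgeR. Named there were Ndufa4l2 (-0.88 ± 0.37), Ndufv3 (0.19 ± 0.08), Ndufv2 (0.15 ± 0.06) and Cox8b. Pprc1 passed in that interaction, lower by -0.60 ± 0.11 (edgeR adjusted p of 0.00522).

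Control groups of different age class or day asked how the genes differed without defeat. Adult minus adolescent controls at day 1 had a median of -0.01 over the members, with 39 of 87 above 0, while 4.38% of all genes passed the threshold. At an unadjusted p under 0.05, 2 members were higher, against 8.62% of all genes, and 1 lower, against 7.89%. By edgeR and limma 0 members passed. DESeq2 called 1, Ndufb2, and its share of all genes is not given. Ndufb2, a supernumerary subunit of complex I, had 33.9, 30.3, 32.4 and 33.9 CPM in adult controls, against 27.0, 30.6, 28 and 27.9 CPM in adolescent controls (0.20 ± 0.06, edgeR adjusted p of 0.0721), with 1 adult library just below the highest adolescent one. Ndufa4l2 had 1.13 ± 0.384 CPM in adults, against 1.71 ± 0.456 CPM in adolescents (-0.61 ± 0.26), Atp5mk 31.9 ± 2.52 against 28.9 ± 2.28 CPM (0.14 ± 0.06) and Atp5mc2 43.8 ± 2.58 against 46.7 ± 1.97 CPM (-0.09). In the list of regulators, Gabpa, the DNA-binding subunit of an ETS factor, was called higher in adults at 0.34 ± 0.06 (edgeR adjusted p of 0.000707).

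At day 21, adult minus adolescent controls gave the only member that passed the threshold in edgeR's test in any of the 12 comparisons. Ndufv3, a small subunit of the NADH-binding arm of complex I, had 28.1, 27.3, 26.3 and 31.7 CPM in adult controls, against 33.2, 33.3, 31.9 and 31.6 CPM in adolescent controls. The groups overlapped in the highest adult and lowest adolescent library. It fell with a log2 change of -0.20 ± 0.06 (edgeR adjusted p of 0.0376), a call that was lost when any of 7 of the 8 libraries was left out, with an adjusted p of up to 0.147 in these fits. Of all genes 6.06% passed in this comparison. Subunit c genes differed in direction: Atp5mc1 had 72.8 ± 2.28 CPM in adult controls, against 63.8 ± 4.33 CPM in adolescent controls (0.19 ± 0.07, edgeR adjusted p of 0.135). Atp5mc2 had 43.9 ± 1.71 CPM in adult controls, against 47.8 ± 2.35 CPM in adolescent controls (-0.12 ± 0.05, edgeR adjusted p of 0.131). It passed in limma on log2 FPKM, for which no share of all genes is given. Ndufb2 had 35.7 ± 2.64 against 31.9 ± 3.35 CPM (0.16 ± 0.06, or 0.10 without replicate 1 of the adolescent controls). Of the members 27 of 87 were above 0, with a median of -0.02.

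Between days, adolescent controls at day 21 minus day 1 had a median of 0.05 over the members. There 66 of 87 were above 0 and 13 (14.9%) were higher at an unadjusted p under 0.05, against 5.69% of all genes, and 0 lower, against 6.16%. By edgeR, DESeq2 and limma 0 members passed, against 0.925% of all genes by edgeR. Ndufa13, a membrane-arm subunit of complex I, had 48.1, 44.6, 43.5 and 51.0 CPM at day 21, against 38.1, 41.3, 42.1 and 37.5 CPM at day 1, without overlap (0.24 ± 0.07, edgeR adjusted p of 0.136). Ndufa8 had 60.7 ± 6.40 CPM at day 21, against 54.6 ± 1.77 CPM at day 1 (0.15, or 0.076 without replicate 4 of day 21), Atp5mk 32.6 ± 1.02 against 28.9 ± 2.28 CPM (0.17) and Ndufa6 33.6 ± 2.47 against 29.99 ± 2.41 CPM (0.16). The day 1 controls here are those of the adolescent day 1 defeat comparison, so both rest on the same 4 libraries. In the same comparison 80 of 84 cytosolic ribosomal protein genes were above 0, with a median of 0.13 and 35 higher at an unadjusted p under 0.05. All 13 mitochondrially encoded subunits were above 0, with a median of 0.19. In adult controls, day 21 minus day 1 had a median of 0.03, with 60 of 87 above 0, 3 higher at an unadjusted p under 0.05, against 6.7% of all genes, and 0 lower, against 6.2%. There 0 members passed by edgeR, against 0.858% of all genes. DESeq2 called Ndufa8, and its share of all genes is not given. Ndufa8 had 62.1, 61.9, 59.9 and 60.8 CPM at day 21, against 50.3, 54.3, 53.8 and 57.1 CPM at day 1, without overlap (0.18 ± 0.05, edgeR adjusted p of 0.104).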

How the data were processed

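The labels name oligo(dT) beads for RNA selection. The submitters' processing notes name cutadapt 1.9, HISAT2 2.0.4, StringTie 1.3.4d and edgeR, without roles, and the human build hg38, while 37197 of 40392 identifiers are in a mouse name table. The deposited table gives raw read counts and FPKM computed by the authors in 64 columns, all matched to the 32 libraries by name. Strand use and read assignment are not stated.

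Counts were tested with edgeR 4.0.16 (R 4.3.3) in 1 model of all 8 groups (24 residual degrees of freedom), with TMM scaling and its default expression filter, which kept 23778 genes. The biological coefficient of variation was 0.185. SE comes from the log2 change and its F statistic. Model length is the count per FPKM at the library's total. DESeq2 1.42.0 and limma 3.58.1 (pseudocounts of 0.1 and 1 on FPKM, genes with 1 FPKM in 4 libraries) were alternatives. The others are in the closing section. Shares of all genes at a p threshold are from edgeR's fit without covariates, and none is given for the alternatives. Named genes are members that passed, then those of smallest p, up to 8 per defeat comparison and 4 per other comparison. Described by level are the most abundant member of each complex, a fixed list of subunits, and rare isoforms. Members and lists were chosen with earlier results of these data known. The symbol pattern of the cytosolic ribosomal list also took 10 Rps6k kinase genes, left out after the list was seen. Tests were checked on simulated counts. Limits from 0 counts cover counting error only. Some named items are not reported here.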

Additional observations from a re-analysis of the deposited data

Results flagged for a closer look

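A single library stood apart from the other 3 of its group in 5 cases, of 106 groups of 4 examined over the named genes, by the critical value of Dixon's ratio. Chance alone gives about 5% of groups. Cox7c was at 77.9 CPM in replicate 4 of adolescent defeat day 1, against 51.0 to 52.2 CPM in the others. Ndufs5 was at 30.7 CPM in replicate 3 of adolescent defeat day 1 (others 34.5 to 35.1). Atp5mk was at 32.3 CPM in replicate 2 of adolescent control day 1 (others 27.3 to 28.1). Atp5f1a was at 730 CPM in replicate 4 of adolescent defeat day 21 (others 783 to 792). Ndufa10 was at 114 CPM in replicate 1 of adult defeat day 21 (others 123 to 124).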

How the results depend on the processing

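In adolescents at day 1, the number of members that passed was 5 with DESeq2 and 0 to 1 with 1 library left out, against 0. Members higher at an unadjusted p under 0.05 were 10 with the ribosomal protein covariate, 33 to 42 under the other full-library settings and 29 to 43 with 1 library left out, against 40, and the median log2 change was 0.050 with that covariate, against 0.12. For the age class interaction at day 1, DESeq2 called 1 member, and with the ribosomal protein covariate the median was -0.068 and 6 members were lower, against 29 (15 to 32 with 1 library left out). Between adult and adolescent controls, DESeq2 called 1 member at day 1. At day 21 limma called 2 with either pseudocount, and 0 passed with no filter, only the groups compared, the replicate block, the ribosomal protein covariate or without libraries over 100 CPM of Ttr, against 1 (0 to 1 with 1 library left out). The median for day 21 against day 1 was -0.015 in adolescent controls with the ribosomal protein covariate, against 0.05, and DESeq2 called 1 member in adult controls. The causes were not tested, and no share of all genes is given for these settings. Of 1252 alternatives for named genes, 1229 kept direction and side of the threshold, 12 lost the call, 11 gained it and 0 reversed. The only call that could be lost was that of Ndufv3 in the day 21 controls. Nearly all alternatives that kept their side were therefore of genes that had no call, and their number does not measure the stability of a call. Same-numbered libraries showed little shared deviation (correlations of -0.143 to 0.071). Whether the numbers mark pairs cannot be told from these values, since differently numbered libraries were not compared. With the replicate block 38 members were higher in adolescents at day 1, with a median of 0.12, and apart from Ndufv3 the block changed no call. Leaving out libraries over 100 CPM of Ttr gave no value for comparisons with adolescent defeat day 1, which has no other library.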
